A study of Mus musculus with 36 samples.

Results

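The leukaemia bone marrow (BM) of a mouse model of infant mixed lineage leukaemia was compared between its Flt3-negative and Flt3-positive stem and progenitor cells. The comparison used 8 of the 36 libraries of the series, namely the 4 libraries titled as leukaemia BM HSC and the 4 titled as leukaemia BM LMPP. Each of the 8 libraries came from another mouse, so the groups were not paired. The HSC/MPP cells, called HSC here, are stem cells and multipotent progenitors that were sorted as lineage negative, c-Kit positive, Sca-1 positive and Flt3 negative. The LMPP are lymphoid-primed progenitors with the same gate but positive for Flt3. Both groups carried the fusion Kmt2a-AFF1 and overexpressed a microRNA, and cells were taken from mice with terminal leukaemia. The control mice, used below for values side by side, carried the same fusion with a scrambled microRNA and had no leukaemia. For age, sex and the promoter that drives the microRNA, the sources used here give no value.

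Kmt2a is a histone methyltransferase gene, and its fusions to elongation factors such as Aff1 keep Hoxa genes and other stem cell genes transcribed in leukaemia of infants. In normal marrow, Flt3 marks the step at which multipotent progenitors lose megakaryocyte and erythroid potential and gain lymphoid and dendritic cell potential. A leukaemia that spans both gates can therefore be described by which lineage programs each gate holds.

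The overexpressed microRNA is miR-130b in the sample labels and miR-130a in the design text. Both mature sequences are shown because the labels differ, with the seed (bases 2 to 8, which pair with targets) in capitals. They are RefSeq entries on GRCm38.p6.
mmu-miR-130a-3p: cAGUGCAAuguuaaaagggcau
mmu-miR-130b-3p: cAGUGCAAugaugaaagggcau
The miR-130a sequence lies at chr2:84741116-84741137 on the minus strand and the miR-130b sequence at chr16:17124071-17124092 on the minus strand. They share the seed and differ at 2 of 22 positions. The gene Mir130a had 0 to 2 counts in the HSC libraries and 0 to 1 in the LMPP libraries, and Mir130b had 0 to 5 and 0 to 8. Neither group therefore held more than a few counts of either gene, and the RNA libraries do not tell which microRNA was overexpressed.

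Library totals were 10.2 to 23.0 M counts in HSC and 1.91 to 30.4 M in LMPP, where replicate 3 had the fewest. The share of counts that a uniform background along the genome would bring, judged from sensory receptor genes, was 9.03 to 9.18% in HSC replicates 1 to 3, 26.7% in HSC replicate 4, and 0.781 to 6.42% in LMPP. The groups did not overlap in it (exact permutation test, two-sided p = 0.0286, the smallest that 4 against 4 allows). The predicted gene Gm10800, chosen after its values were seen, took 4.42 to 14.5% of the counts in HSC and 0.633 to 2.14% in LMPP, again without overlap (the same p). Identifiers without a symbol held 19.7 to 33.1% of the counts in HSC and 38.6 to 42.5% in LMPP (the same p). The first principal component of the 8 libraries carried 51.0% of the variance and placed all HSC above all LMPP, with HSC replicate 4 at 99.8 and the other HSC libraries at 14.4 to 20.2. Background thus moved with the sort gate. Values with background subtracted, or with each library's background share as a term in the fit, are given beside part of the results. Results given without such values may move with background too.

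**Figure D1:**
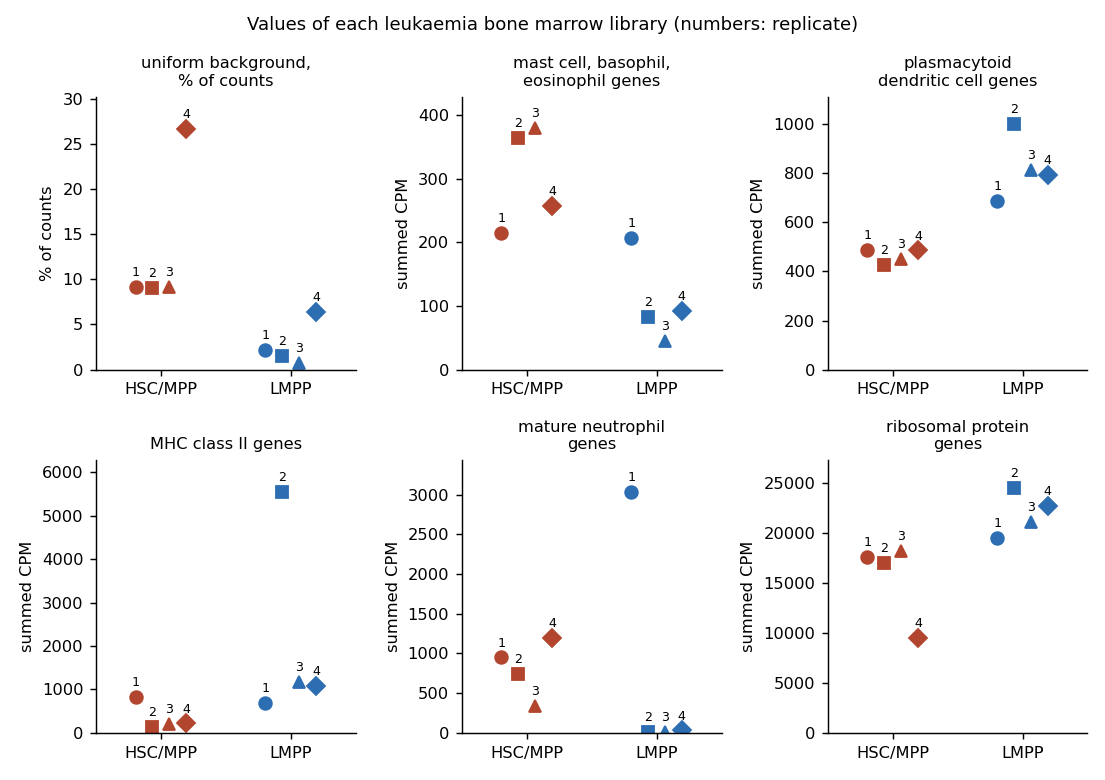
Each point is 1 of the 8 leukaemia BM libraries, marked by replicate number, with HSC/MPP in red and LMPP in blue. The panels show the uniform background in % of counts and the summed CPM (counts scaled to a common library total) of 5 gene lists. HSC replicate 4 stands apart in background at 26.7%, LMPP replicate 2 in MHC class II genes at 5544 CPM and LMPP replicate 1 in mature neutrophil genes at 3031 CPM.

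Flt3, the receptor tyrosine kinase that defines the gate, was measured at 72.2, 21.4, 60.9 and 27.3 CPM in HSC replicates 1 to 4 and at 136, 473, 328 and 312 CPM in LMPP. CPM are counts scaled to a common library total, after scaling of the totals by the trimmed mean of M values (TMM). All 4 LMPP values lay above all 4 HSC values, and LMPP replicate 1 was the lowest of its group. Flt3 was lower in HSC by a log2 fold change of -2.78 ± 0.50 (SE; edgeR adjusted p = 0.0445), which shows that the RNA followed the gate but adds nothing to it. Kit, the receptor behind c-Kit, averaged 117 ± 49.7 CPM (SD, n = 4) in HSC and 105 ± 12.6 CPM in LMPP (0.15 ± 0.31, edgeR adjusted p = 0.785). Ly6a, which encodes Sca-1, averaged 13.6 ± 7.10 and 20.2 ± 7.81 CPM (-0.54 ± 0.47, edgeR adjusted p = 0.488). The 2 markers that the groups share overlapped between them.

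Of 15821 genes above background, 9 passed an edgeR adjusted p under 0.05, or 0.0569%. Higher in HSC were Cd200r3, Cd200r4, Gzmb, Itga2b, Parm1 and Auts2 (6 genes, 0.0379%), and lower in HSC were Flt3, Notch1 and Tcf19 (3 genes, 0.019%). The call of the 9 genes rested on single libraries. Without HSC replicate 2, or without LMPP replicate 2, 3 or 4, 0 genes passed, and without HSC replicate 3 only 1 gene outside the 9 did. Without LMPP replicate 1 the count was 76 (42 higher and 34 lower in HSC), without HSC replicate 1 it was 19 and without HSC replicate 4 it was 16. DESeq2 called 482 genes (3.05%), of which 342 were higher in HSC (2.16%) and 140 lower (0.885%), and these included all 9. At an unadjusted p under 0.05 there were 3475 genes (22%), 2180 higher (13.8%) and 1295 lower (8.19%) in HSC. With background subtracted 0 genes passed, and 1980 were at an unadjusted p under 0.05. With the background share as a term 0 passed, with 1078 at an unadjusted p under 0.05. The fit included the CNS libraries of the same mice, treated as independent, and the number of calls depended on them: 2 genes passed in a fit of the 8 libraries alone and 9 when the same 12050 genes were tested in the 24-library fit, while the 12 BM libraries gave 1. The balance of directions also moved, with 85 higher and 98 lower in HSC by limma with sample weights, 1 and 11 with no filter, and 0 and 2 with no background filter. Each of the 9 genes kept the direction of its log2 fold change in the alternatives that tested it, which numbered 19 for Gzmb, 20 for Auts2, 23 for Parm1 and 24 for the other 6. The labels give each library's mouse, and some mouse identifiers share an opening number across the groups, whose meaning the labels do not say. With that number as a term 1 gene passed.

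**Figure D2:**
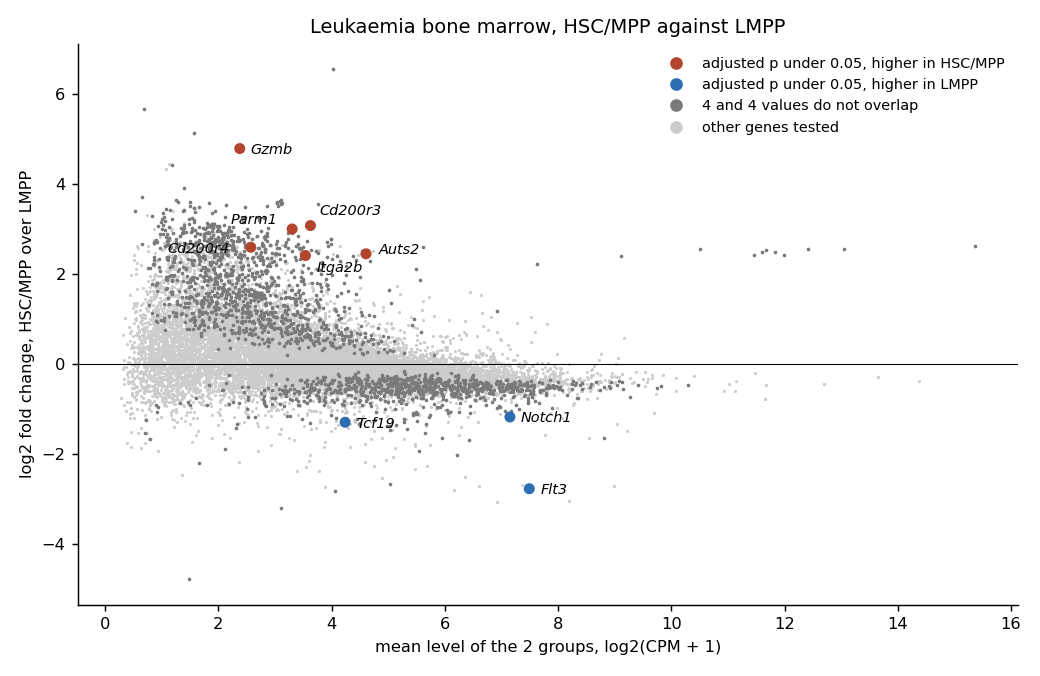
Every gene tested is a dot, with its mean level in the 8 libraries on the x axis (log2 of CPM + 1) and its log2 fold change of HSC/MPP over LMPP on the y axis. The 9 genes at an adjusted p under 0.05 are coloured and named, and darker dots are genes whose 4 and 4 values do not overlap. Low-level genes spread mainly toward HSC/MPP, while genes of middle level that do not overlap sit mainly just below 0.

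Values of 4 HSC libraries all above 4 LMPP values were found for 1257 of the 15821 genes (7.95%), and the opposite for 837 (5.29%). The 2 directions differed in level. The genes with HSC above had a median mean of 6.52 CPM in HSC, and 43.9% of them had an HSC mean under 3 times the uniform background for their length. The genes with LMPP above had a median mean of 51.0 CPM in LMPP, and 2.39% of them had an HSC mean under that limit. Among the 2180 genes higher in HSC at an unadjusted p under 0.05, 47.5% were under it.

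Of the 6 genes higher in HSC, 2 are on the list of mast cell, basophil and eosinophil genes (Cd200r3 and Gzmb). Cd200r3, an activating receptor of the CD200 receptor family found on mast cells and basophils, was measured at 16.5, 29.998, 26.2 and 9.29 CPM in HSC and at 3.98, 1.09, 0.997 and 2.65 CPM in LMPP. The groups did not overlap, and HSC replicate 4 was the lowest of its group. Cd200r3 rose in HSC by 3.07 ± 0.54 on the log2 scale (edgeR adjusted p = 0.0445), and by 3.58 with background subtracted. Cd200r4, its neighbour in the family, was measured at 5.80, 9.78, 15.4 and 3.48 CPM in HSC and 2.57, 1.09, 0.499 and 0.986 CPM in LMPP (2.59 ± 0.49, edgeR adjusted p = 0.0445). Cd200r4 was named after its values were seen, since its HSC mean is under 10 CPM. The genes are paralogs, so the counting could have split reads between them and each value by itself is uncertain.

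Cd200r3 and Cd200r4 lie close together on chromosome 16, and the 250 bases before each start are shown because both genes were higher in HSC and Gata1 had higher values there too. The sequences are from RefSeq on GRCm38.p6, both on the plus strand, at chr16:44943428-44943677 for Cd200r3 and chr16:44820478-44820727 for Cd200r4. Capitals mark AGATAA or TGATAA on either strand, a form of the motif that GATA factors bind.
Cd200r3: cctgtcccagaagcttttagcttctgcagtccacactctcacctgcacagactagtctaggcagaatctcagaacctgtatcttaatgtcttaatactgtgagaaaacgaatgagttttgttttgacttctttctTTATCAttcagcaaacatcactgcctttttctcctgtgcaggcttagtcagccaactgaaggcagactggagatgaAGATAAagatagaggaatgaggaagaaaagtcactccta
Cd200r4: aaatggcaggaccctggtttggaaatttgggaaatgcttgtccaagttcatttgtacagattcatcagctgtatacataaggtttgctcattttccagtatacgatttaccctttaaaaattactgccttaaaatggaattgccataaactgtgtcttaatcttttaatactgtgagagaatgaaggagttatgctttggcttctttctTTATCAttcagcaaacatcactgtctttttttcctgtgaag
The Cd200r3 window held 2 matches and the Cd200r4 window 1. Of all 27025 promoters of this length in the table, 17.0% held a match, and of the 9499 promoters of genes tested 9.98% did. Among the genes with an adjusted p under 0.05 and a promoter in the table, 2 of 5 higher in HSC and 0 of 3 higher in LMPP had a match. The 2 are Cd200r3 and Cd200r4 themselves. Their windows share the stretch around 1 match, so the 2 are not separate observations and no enrichment can be read from them. A match is a description of the letters and not a measured site.

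Of 18 genes of mast cells, basophils and eosinophils, 11 were tested and 2 passed the test, both higher in HSC, against 0.0379% of all genes in that direction. All 11 had positive log2 fold changes, with a median of 2.18, against a median of 0.01 over all genes tested. The list's median was 2.45 with background subtracted and 1.38 with the background share as a term, where 10 of 11 were positive. Genes entered the test by being above background in at least 4 libraries of any leukaemia group. A member near 0 in LMPP could thus enter only through libraries where it was higher, so this filter can favour positive values. Among genes above background in 4 of the 8 libraries 8 members remained, all 8 positive, with a median of 1.84. The 4 HSC libraries alone can meet that filter as well, so it does not remove this limit. Summed over the list, HSC held 215, 364, 380 and 257 CPM and LMPP 207, 82.6, 44.4 and 92.1 CPM. The groups did not overlap, and LMPP replicate 1 was the highest of its group. These sums include the members that were not tested and have no background removed. HSC replicate 1 at 215 CPM lay close to LMPP replicate 1 at 207 CPM, and the part of background in that gap was not tested. Gzmb, a serine protease of cytotoxic lymphocytes that some mast cells and plasmacytoid dendritic cells also make, was the other gene that passed. It was measured at 3.00, 14.9, 10.7 and 4.11 CPM in HSC and at 0.257, 0.0777, 0 and 0.571 CPM in LMPP (4.79 ± 0.90, edgeR adjusted p = 0.0445). A count of 0 in LMPP replicate 3 allows up to 1.496 CPM (3 counts, counting error only).

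The other members of the list did not pass. Ms4a2, the beta chain of the high-affinity IgE receptor, was measured at 18.1, 31.4, 37.0 and 7.68 CPM in HSC and 4.46, 0.0777, 0 and 1.87 CPM in LMPP (3.56 ± 0.84, edgeR adjusted p = 0.0909). The groups did not overlap. Cpa3, the mast cell carboxypeptidase, ranged from 7.77 to 96.0 CPM in HSC and from 0.499 to 29.8 CPM in LMPP, where only replicate 1 exceeded 1.55 CPM. Alox5, the lipoxygenase that starts leukotriene synthesis, was at 14.4 to 29.4 CPM in HSC and 2.18 to 12.4 CPM in LMPP (1.77 ± 0.49, edgeR adjusted p = 0.133). The 7 members that were not tested, among them Fcer1a, Mcpt4 and Tpsb2, reached at most 8.04 CPM in HSC and 1.56 CPM in LMPP. LMPP replicate 1 thus held the highest value of its group in Cpa3, Ms4a2 and Alox5.

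Itga2b, the integrin chain CD41 of megakaryocytes and early stem cells, was measured at 9.23, 22.4, 17.6 and 23.3 CPM in HSC and at 5.11, 2.72, 0.997 and 3.42 CPM in LMPP. It was higher in HSC by 2.41 ± 0.44 on the log2 scale (edgeR adjusted p = 0.0445), with no overlap. Of 20 megakaryocyte and platelet genes 11 were tested, 5 had positive and 6 negative values, and Itga2b was the 1 member that passed. The median was -0.03, and leaving out 1 library moved it between -0.077 and 0.26. It was 0.063 with background subtracted and 0.32 with the background share as a term, where 8 of 11 were positive. Gp1ba, a subunit of the von Willebrand factor receptor, was at 5.21 to 12.9 CPM in HSC and 2.56 to 4.99 CPM in LMPP (1.46 ± 0.45, edgeR adjusted p = 0.154). Thbs1, thrombospondin, had means of 7.66 ± 6.01 and 1.23 ± 0.908 CPM (2.43 ± 0.65, edgeR adjusted p = 0.126), and the uniform background in HSC was 4.64 CPM for its length. Pf4, a platelet chemokine, had means of 1.21 and 0.249 CPM (1.96 ± 0.87, edgeR adjusted p = 0.204). Plek and Fli1, which other blood cells also express, were at 40.7 to 131 and 39.3 to 74.1 CPM in HSC against 116 to 242 and 63.0 to 78.8 CPM in LMPP.

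The erythroid list had 17 of 20 members tested, 13 with positive and 4 with negative log2 fold changes, a median of 1.36, and 0 that passed. The median was 0.86 without HSC replicate 4 and 0.45 with the background share as a term. It was 0.52 for the 10 members above background in 4 of the 8 libraries, a filter that the 4 HSC libraries alone can meet. Gata1, the factor that drives erythroid, megakaryocyte and mast cell genes, was measured at 7.97, 12.7, 5.84 and 5.99 CPM in HSC and at 1.35, 0.389, 0 and 1.25 CPM in LMPP. The groups did not overlap, but the gene missed the threshold (3.16 ± 0.66, edgeR adjusted p = 0.0701; DESeq2 adjusted p = 0.000489). Klf1, an erythroid activator downstream of Gata1, had means of 5.04 ± 2.17 and 0.631 ± 0.608 CPM (2.71 ± 0.65, edgeR adjusted p = 0.0909). Globin values went the other way in part, with Hbb-bt at 20.5 to 137 CPM in HSC and 75.0 to 240 CPM in LMPP. Tfrc, the transferrin receptor of dividing cells, was at 24.5 to 63.8 CPM in HSC and 90.5 to 113 CPM in LMPP (-1.07 ± 0.29, edgeR adjusted p = 0.129). Cd36, a fatty acid transporter, averaged 4.10 CPM in HSC and 18.2 CPM in LMPP, of which replicate 2 held 48.5. With all members added up, HSC held 281 to 515 CPM and LMPP 329 to 692 CPM, and the groups overlapped.

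Parm1 and Auts2 were the other genes higher in HSC. Parm1, a mucin-like membrane protein, was measured at 11.3, 24.2, 16.6 and 10.4 CPM in HSC and at 1.12, 2.56, 2.99 and 1.76 CPM in LMPP (3.00 ± 0.54, edgeR adjusted p = 0.0445). Auts2, a chromatin regulator known from neurons, was measured at 22.1, 44.1, 47.0 and 44.7 CPM in HSC and at 7.68, 4.27, 7.98 and 9.18 CPM in LMPP (2.45 ± 0.46, edgeR adjusted p = 0.0445). Auts2 is a long gene, and the uniform background for its exons came to 17.5 CPM in HSC. With background subtracted its log2 fold change was 2.72 and that of Parm1 3.51.

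The rule for named genes filled its list with genes of the smallest p that did not pass. On both sides the rule took only genes whose values did not overlap between the groups, so their lack of overlap is not a result. On the HSC side these were Slc18a2, Slc22a3, Emilin2 and Pld3. Slc18a2, the vesicular transporter that loads histamine and serotonin, was at 13.5 to 46.9 CPM in HSC and 6.02 to 6.98 CPM in LMPP (2.17 ± 0.44, edgeR adjusted p = 0.0677). Slc22a3, an organic cation transporter that carries histamine, was at 14.1 to 70.9 and 5.48 to 11.7 CPM (2.29 ± 0.47, edgeR adjusted p = 0.0701). Emilin2, a matrix glycoprotein, was at 13.9 to 43.4 and 3.49 to 13.7 CPM (1.80 ± 0.38), and Pld3, a lysosomal nuclease, at 8.09 to 18.0 and 1.99 to 5.49 CPM (1.48 ± 0.32), each with an edgeR adjusted p of 0.0701. On the LMPP side Tubgcp5, of the gamma-tubulin ring, had an edgeR adjusted p of 0.0504 (-1.01 ± 0.20), at 18.2 to 25.3 CPM in HSC and 36.6 to 51.9 CPM in LMPP. Mctp2, Gltp and Net1 (edgeR adjusted p = 0.0677) and Prr5 (edgeR adjusted p = 0.0701) had log2 fold changes of -1.38, -0.96, -1.15 and -1.19.

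**Figure D3:**
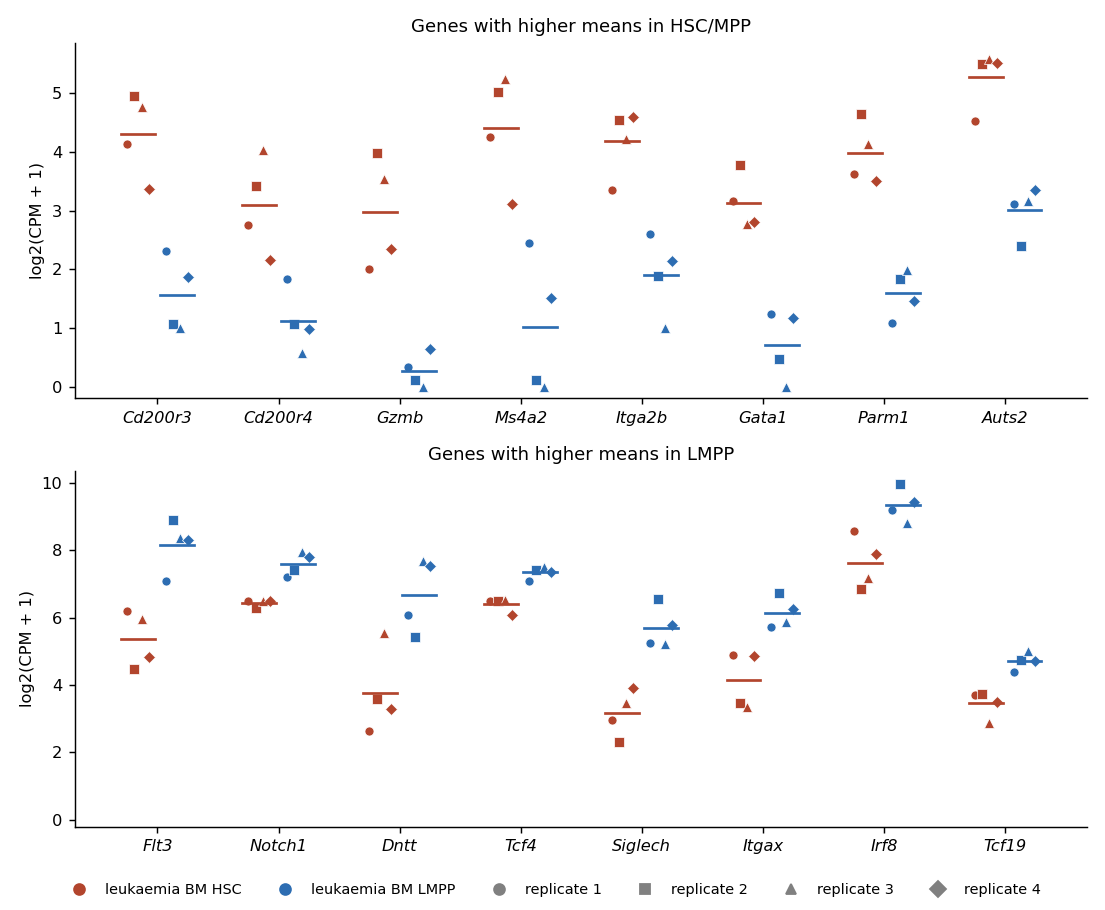
Levels of 16 genes in each of the 8 libraries, as log2 of CPM + 1, with a bar at the group mean and the marker shape giving the replicate. The upper panel holds genes with higher means in HSC/MPP and the lower panel genes with higher means in LMPP. Values overlap between the groups in the lower panel for Dntt, where HSC replicate 3 at 45.7 CPM lies above LMPP replicate 2 at 42.0 CPM.

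Notch1, the receptor whose signal commits progenitors to the T lineage, was measured at 88.9, 76.8, 89.7 and 88.9 CPM in HSC and at 145, 168, 248 and 221 CPM in LMPP. It was lower in HSC by -1.18 ± 0.22 on the log2 scale (edgeR adjusted p = 0.0445), without overlap. Of the 20 genes of the Notch pathway other than Notch1, 10 were tested and 0 passed, with 1 positive and 9 negative values and a median of -0.34, which was -0.10 with the background share as a term. Notch2 was at 126 to 294 CPM in HSC and 253 to 744 CPM in LMPP, where replicate 2 was the highest (-0.88 ± 0.35, edgeR adjusted p = 0.181). The glycosyltransferase Lfng, which tunes Notch receptors, had means of 10.6 and 21.7 CPM (-1.03 ± 0.31, edgeR adjusted p = 0.151), and the effector Rbpj had means of 68.3 and 93.0 CPM (-0.44 ± 0.22, edgeR adjusted p = 0.244). Jag2, a ligand, was the positive member at 14.7 and 10.1 CPM (0.52 ± 0.30, edgeR adjusted p = 0.295). The targets Hes1, Hey1 and Nrarp did not enter the test, with at most 6.70 CPM in HSC and 1.99 CPM in LMPP.

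Of 22 lymphoid priming genes, 18 were tested, 6 with positive and 12 with negative values and a median of -0.67, and Notch1 was the 1 member that passed, against 0.019% of all genes in that direction. The members together held 840 to 1226 CPM in HSC and in LMPP 1560 to 2204 CPM without overlap. Dntt, the terminal transferase of early lymphoid cells, was measured at 5.21, 10.9, 45.7 and 8.84 CPM in HSC and at 67.1, 42.0, 202 and 185 CPM in LMPP (-2.80 ± 0.74, edgeR adjusted p = 0.127; DESeq2 adjusted p = 0.0158). HSC replicate 3 lay above the lowest LMPP value. Tcf4, which encodes an E protein of lymphoid and plasmacytoid dendritic cells, was at 66.6 to 91.9 CPM in HSC and 134 to 181 CPM in LMPP (-0.94 ± 0.21, edgeR adjusted p = 0.0772). Ikzf1, which opens lymphoid genes, was at 81.6 to 167 and 213 to 248 CPM (-0.73 ± 0.25, edgeR adjusted p = 0.163). Rag1, the recombinase of antigen receptor genes, did not enter the test, with at most 11.7 CPM in HSC and 3.53 CPM in LMPP.

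B cell genes were mostly too low to test, with Ighm among the exceptions. Of 18 B cell genes 7 were tested and 0 passed, with 4 positive and 3 negative values and a median of 0.19. Cd79a and Pax5 did not enter the test and reached at most 5.27 and 23.6 CPM in HSC and 0.934 and 4.49 CPM in LMPP. Summed over the list, HSC held 160 to 245 CPM and LMPP 192 to 260 CPM. Ighm, the heavy chain of IgM, was measured at 86.3, 118, 79.9 and 60.0 CPM in HSC and at 146, 172, 215 and 183 CPM in LMPP (-1.05 ± 0.26, edgeR adjusted p = 0.0973). The B cell list's median was -0.77 with background subtracted and -0.31 with the background share as a term, and leaving out 1 library moved it between 0.037 and 0.28. Fcrla, Spib and Cd72 had log2 fold changes of -1.80, -1.11 and 0.62, with edgeR adjusted p of 0.163, 0.315 and 0.299.

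Dendritic cell genes had their higher values in LMPP. All 20 plasmacytoid dendritic cell genes were tested, 17 with negative values and 3 with positive, and 0 passed. The median was -1.07, and -0.68 without LMPP replicate 2. Siglech, the lectin that marks these cells, was measured at 6.83, 3.93, 9.95 and 14.1 CPM in HSC and at 37.0, 93.0, 36.4 and 53.7 CPM in LMPP (-2.68 ± 0.58, edgeR adjusted p = 0.0772; DESeq2 adjusted p = 0.000631). The groups did not overlap, and LMPP replicate 2 was the highest. Cox6a2, a respiratory subunit that marks these cells in blood, was at 0 to 3.31 CPM in HSC and 7.71 to 18.4 CPM in LMPP (-3.21 ± 0.81, edgeR adjusted p = 0.108). Irf7, the factor behind their interferon, was at 19.5 to 34.4 and 34.5 to 105 CPM (-1.33 ± 0.37, edgeR adjusted p = 0.136), and Runx2 at 49.3 to 122 and 178 to 210 CPM (-1.16 ± 0.29, edgeR adjusted p = 0.0973). With all members added up, HSC held 425 to 489 CPM and LMPP 689 to 1002 CPM without overlap.

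The 20 genes of conventional dendritic cells were all tested, 5 with positive and 15 with negative values, with a median of -1.54, and 0 passed edgeR's test. DESeq2 called 9 of them, all lower in HSC, against 0.885% of all genes. Without LMPP replicate 2 the median was -0.84. It was -1.34 with background subtracted and -1.04 with the background share as a term. Itgax, the integrin CD11c, was measured at 28.7, 10.1, 9.10 and 27.8 CPM in HSC and at 51.4, 106, 57.3 and 75.7 CPM in LMPP (-1.94 ± 0.43, edgeR adjusted p = 0.0783). Irf8, which directs dendritic cell fate, was at 115 to 376 CPM in HSC and 447 to 1006 CPM in LMPP (-1.64 ± 0.45, edgeR adjusted p = 0.130). Clec9a, a receptor of type 1 conventional dendritic cells, averaged 12.7 ± 10.3 and 53.5 ± 46.9 CPM (-2.08 ± 0.57, edgeR adjusted p = 0.132). Ppt1, a lysosomal thioesterase, was at 18.0 to 40.5 and 51.6 to 280 CPM (-2.04 ± 0.46, edgeR adjusted p = 0.0827). The summed level was 683 to 1527 CPM in HSC and 1611 to 4946 CPM in LMPP without overlap.

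The 10 MHC class II genes all had negative log2 fold changes, with a median of -1.62, and 0 passed by edgeR. DESeq2 called 6, against 0.885% of all genes in that direction. Without LMPP replicate 2 the median was -1.004. It was -1.75 with background subtracted and -1.28 with the background share as a term. H2-Ab1, a chain of the molecule that presents peptides to helper T cells, was measured at 170, 18.8, 31.6 and 31.7 CPM in HSC and at 144, 1408, 278 and 257 CPM in LMPP. HSC replicate 1 overlapped the LMPP group and LMPP replicate 2 stood far above it (-3.04 ± 0.87, edgeR adjusted p = 0.143). H2-Aa and H2-Eb1 had the same 2 libraries highest in their groups (-2.70 ± 0.77 and -3.07 ± 0.89, edgeR adjusted p = 0.143 and 0.146). H2-Ob, a chain that restrains peptide loading, was at 8.60 to 17.4 and 15.5 to 62.1 CPM (-1.30 ± 0.36, edgeR adjusted p = 0.130). Summed over the list, HSC held 829, 146, 207 and 219 CPM and LMPP 694, 5544, 1178 and 1082 CPM. Fewer cells with such RNA and less of it per cell cannot be told apart in these bulk libraries.

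Stem cell genes were mostly too low to test. Of 30 members 13 entered the test, 9 with positive and 4 with negative values and a median of 0.38, and 0 passed. The median was 0.053 without LMPP replicate 1, 0.13 without HSC replicate 2 and 0.25 without HSC replicate 4, and 0.18 with background subtracted or its share as a term. Gata2, a factor of stem, mast and megakaryocyte progenitors, was measured at 70.0, 213, 215 and 22.2 CPM in HSC and at 49.6, 36.5, 40.9 and 44.4 CPM in LMPP (1.60 ± 0.54, edgeR adjusted p = 0.162). HSC replicate 4 lay under all LMPP values. Ctnnal1 (1.63 ± 0.56) and Thy1 (1.60 ± 0.70) had HSC means of 9.73 and 5.62 CPM, with a uniform background of 5.85 and 2.29 CPM. Sult1a1 had 83.2 CPM in LMPP replicate 2 and 0.787 to 5.09 CPM in the other 7 libraries. The regulators Mecom (31.3 to 105 CPM in HSC, 33.2 to 77.3 CPM in LMPP) and Angpt1 (16.9 to 162 and 75.9 to 162 CPM) overlapped, and Hlf, Procr and Slamf1 did not enter the test, with at most 13.7 CPM. The 17 members that did not enter had a median of 4.37 CPM in HSC and 0.891 CPM in LMPP. With all members added up, HSC held 493 to 827 CPM and LMPP 387 to 562 CPM.

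The genes that Kmt2a fusions maintain did not differ by the test. Of 13 genes of the Hoxa cluster with its partners Meis1 and Pbx3, 9 were tested, 1 with a positive and 8 with a negative value, and 0 passed. The median was -0.24. It was 0.20 without HSC replicate 4 and LMPP replicate 3, 0.21 with the background share as a term, 0.0076 without HSC replicate 4, 0.0022 without LMPP replicate 3, -0.65 without HSC replicate 3 and -0.42 without LMPP replicate 1. Meis1, the cofactor of Hoxa9, had means of 22.4 ± 5.89 and 16.3 ± 6.37 CPM (0.51 ± 0.31, edgeR adjusted p = 0.323). Hoxa9 was at 30.9 to 175 CPM in HSC and 95.5 to 154 CPM in LMPP (-0.23 ± 0.37). Hoxa7 was at 15.8 to 47.2 and 39.9 to 68.8 CPM (-0.52 ± 0.36, edgeR adjusted p = 0.387), and Hoxa3 and Hoxa5 had values of -0.44 ± 0.31 and -0.28 ± 0.38. Of 23 fusion targets outside the cluster 20 were tested, 3 with positive and 17 with negative values and a median of -0.33, which was -0.14 without HSC replicate 4 and 0.0092 with the background share as a term. Mef2c, a factor of lymphoid progenitors and leukaemia stem cells, was at 57.4 to 141 CPM in HSC and 166 to 279 CPM in LMPP (-1.0 ± 0.30, edgeR adjusted p = 0.151). Tapt1 and Mbnl1 had values of -0.69 ± 0.21 and -0.76 ± 0.30. Of 20 genes of the Kmt2a complex and its elongation partners, 19 were tested, 5 positive and 14 negative with a median of -0.16. That median was -0.014 without HSC replicate 4, -0.24 without HSC replicate 3 and 0.082 with the background share as a term, and Cdk9, Kmt2b and Ash2l had values of -0.37 to -0.33.

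Tcf19, a chromatin factor linked to growth and the S phase, was lower in HSC. It was measured at 12.035, 12.3, 6.35 and 10.3 CPM in HSC and at 19.7, 25.7, 31.4 and 25.2 CPM in LMPP (-1.30 ± 0.25, edgeR adjusted p = 0.0445), without overlap. Of 36 cell cycle genes all were tested, 3 with positive and 33 with negative values, a median of -0.32 and 0 that passed. The median was -0.14 with background subtracted, -0.088 with the background share as a term and -0.21 without LMPP replicate 4. The replication helicase gene Mcm5 was at 65.5 to 97.9 CPM in HSC and 100 to 138 CPM in LMPP (-0.56 ± 0.20, edgeR adjusted p = 0.164). Rrm2, Tk1 and Gins2 had values of -0.66, -0.45 and -0.70. Of 67 replication-dependent histone genes 60 were tested, 59 with negative values and 1 positive, with a median of -0.60 that became -0.22 with background subtracted and was -0.61 with the background share as a term. Hist1h1a was at 98.6 to 174 CPM in HSC and 194 to 354 CPM in LMPP (-0.88 ± 0.30, edgeR adjusted p = 0.161), and Hist3h2ba, Hist1h2af and Hist1h2ao had values of -1.43, -0.96 and -0.76. These genes are near-identical copies, so values of single members are uncertain. The list of arrest and quiescence genes had 14 of 16 members tested, 4 positive and 10 negative, a median of -0.13 and 0 that passed. The median was 0.021 without HSC replicate 4, -0.060 without LMPP replicate 2 and 0.18 with the background share as a term. Cdkn1a, the inhibitor p21, had means of 11.9 and 6.28 CPM (0.89 ± 0.31, edgeR adjusted p = 0.163), while Btg1 and Cdkn2c had values of -0.54 and -0.47.

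All 77 cytosolic ribosomal protein genes had negative values, with a median of -0.49 and a range of -0.81 to -0.07, and 0 passed. For 39 of them LMPP lay above HSC in all libraries, against 5.29% of all genes. Summed over the list, HSC held 17620, 17005, 18213 and 9520.5 CPM and LMPP 19532, 24547, 21136 and 22706 CPM, with HSC replicate 4 the lowest. The median was -0.33 without HSC replicate 4, -0.24 with background subtracted and 0.018 with the background share of each library as a term. Rps15 was at 105 to 155 CPM in HSC and 164 to 285 CPM in LMPP (-0.67 ± 0.23, edgeR adjusted p = 0.163), and Rpl37 had a value of -0.80. Of 34 nuclear genes of oxidative phosphorylation 32 had negative values and 2 positive, with a median of -0.36, and 0 passed. Sdhb, a subunit of succinate dehydrogenase, was at 26.5 to 30.4 and 35.6 to 48.4 CPM (-0.51 ± 0.18, edgeR adjusted p = 0.164). Atp5o and Ndufa2 had values of -0.66 and -0.62, and Ndufb5 of 0.37. The median of that list was -0.11 with background subtracted and 0.054 with the background share as a term.

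Of 16 mature neutrophil genes 15 were tested, 12 with positive and 3 with negative values and a median of 0.17, and 0 passed. With all members added up, HSC held 951, 742, 342 and 1192 CPM and LMPP 3031, 17.2, 15.5 and 31.1 CPM. LMPP replicate 1 was thus the highest of all 8 and the other LMPP libraries the lowest, and without replicate 1 the median of the list was 4.74. The direction turned without HSC replicate 4 (-0.18, 4 of 14 positive), without LMPP replicate 2, 3 or 4 (-0.24, -0.21 and -0.23) and with the background share as a term (-0.72, 1 of 15 positive). Without HSC replicate 2 or 3 the median was 0.26 and 0.38. With background subtracted it was 0.55, with 15 of 15 positive. By limma-trend and by limma with sample weights it was 3.41 and 2.02, each with 15 of 15 positive. Cxcr2, a chemokine receptor of neutrophils, was at 6.71 to 10.6 CPM in HSC and 0 to 5.01 CPM in LMPP (1.55 ± 0.52, edgeR adjusted p = 0.161). Mmp8, Mmp9 and Retnlg had their highest values in HSC replicate 4, at 17.2, 27.1 and 5.18 CPM. All 18 azurophil granule and granulocyte precursor genes were tested, 15 with positive and 3 with negative values and a median of 0.64. The median was 1.83 without LMPP replicate 1 and 0.25 to 0.40 without LMPP replicate 2, 3 or 4 or HSC replicate 4. It was 0.93 with background subtracted and 0.39 with the background share as a term. In that list Csf3r had a value of 0.64 ± 0.28, Plac8 -0.60 ± 0.27 and Clec12a -0.44 ± 0.22, and Ms4a3 was at 10.6 CPM in LMPP replicate 1 and at most 0.986 CPM in the other LMPP. Of 26 monocyte and macrophage genes 24 were tested, 18 positive and 6 negative with a median of 0.62, and 0 passed. The median was 0.080 without HSC replicate 4 (14 of 24 positive) and 1.23 without LMPP replicate 1. It was 1.05 with background subtracted and 0.32 with the background share as a term. Axl, a receptor that helps clear dying cells, was at 5.56 to 27.0 and 0.997 to 5.44 CPM (2.08 ± 0.62, edgeR adjusted p = 0.151), while Mpeg1 had -1.65 ± 0.62 and Fcgr1 2.33 ± 0.99.

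Of 22 T and NK cell genes 9 were tested, 6 positive and 3 negative with a median of 0.74, and 0 passed. The median was 0.42 without HSC replicate 3 and 0.26 with the background share as a term. Cd3e, Cd3d and Cd3g did not enter the test and reached at most 7.95 CPM in HSC and 1.76 CPM in LMPP. Nkg7 had means of 8.90 ± 2.37 and 3.50 ± 1.90 CPM (1.31 ± 0.40, edgeR adjusted p = 0.153). Lat and Il2rb had values of 0.74 and 1.27. The list summed to 68.1 to 195 CPM in HSC and 44.5 to 69.3 CPM in LMPP, and its part in the value of Gzmb was not tested. Of 11 plasma cell genes 4 were tested, 3 positive and 1 negative, with a median of 1.77 that was 0.46 with the background share as a term. Among genes above background in 4 of the 8 libraries only 1 member remained, at -0.39. Igkc, the kappa light chain, was measured at 43.2, 62.1, 11.7 and 3.04 CPM in HSC and at 0.225, 0, 1.99 and 0.363 CPM in LMPP (6.54 ± 1.42, edgeR adjusted p = 0.0772). Igha did not enter the test and was at 7.06 to 64.4 CPM in HSC and 0 to 1.66 CPM in LMPP. The list summed to 85.9 to 173 CPM in HSC and 52.6 to 63.5 CPM in LMPP, without overlap but with background not removed. Xbp1, Ighg2c and Derl3 had values of -0.46, 2.49 and 1.06. Of 18 stroma and endothelium genes 6 were tested, 4 positive and 2 negative, with a median of 1.17. That median was 0.76 without HSC replicate 4 and 0.27 with the background share as a term. The direction turned among genes above background in 4 of the 8 libraries, where 3 members remained, 1 of them positive, with a median of -0.24. Col1a1, Sparc and Plvap had values of 2.42, 2.38 and 1.29 with HSC means of at most 13.7 CPM, while Egfl7, which blood progenitors also express, was at 7.75 to 16.1 and 19.1 to 41.9 CPM (-1.31 ± 0.31, edgeR adjusted p = 0.0909).

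**Figure D4:**
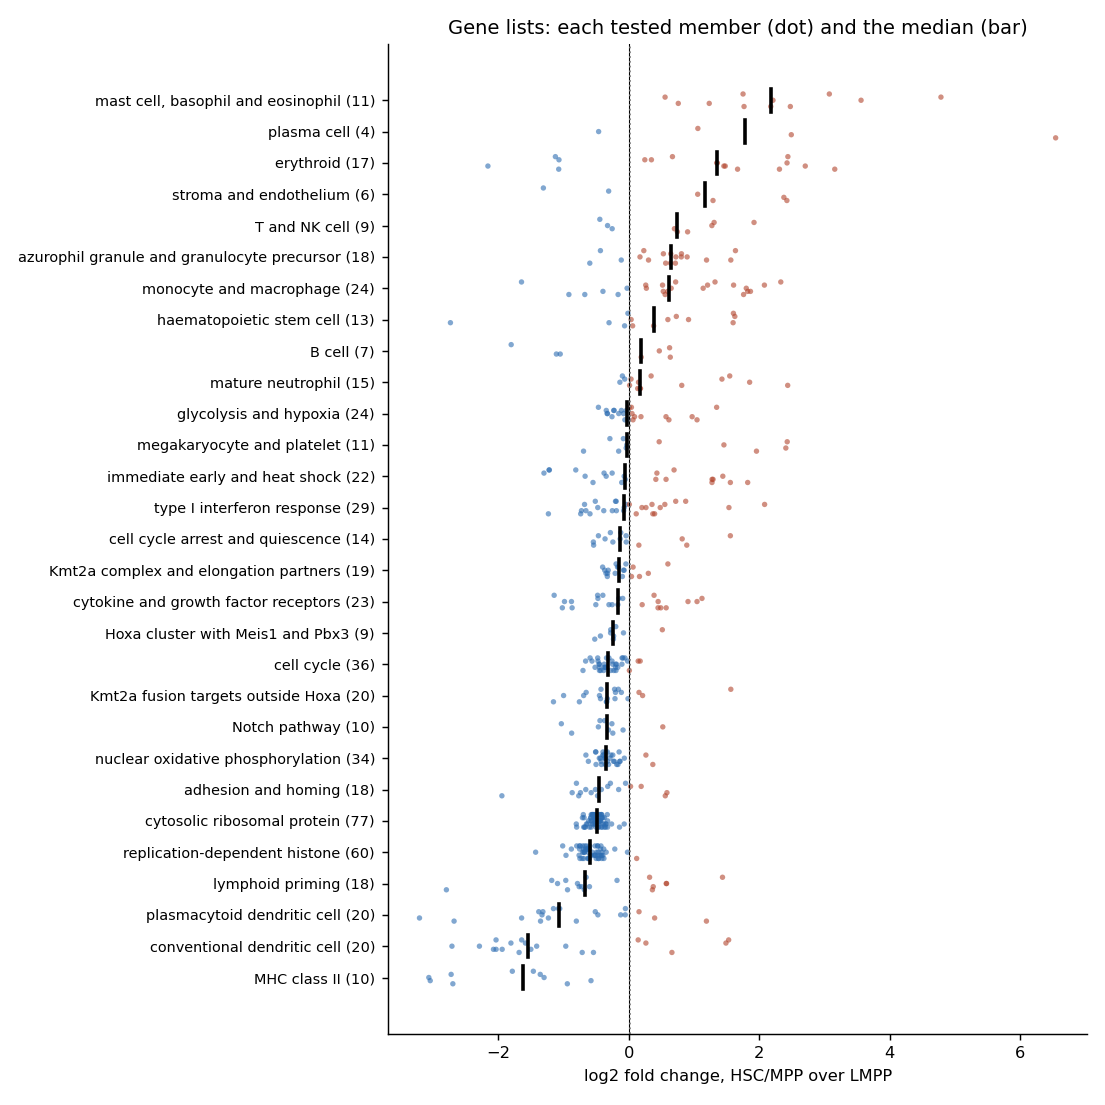
Each dot is the log2 fold change of HSC/MPP over LMPP of 1 tested member of a gene list, with HSC/MPP higher in red and LMPP higher in blue, and the bar marks the list's median. The number of tested members stands in brackets. The mast cell, basophil and eosinophil list lies farthest to the right with a median of 2.18 and MHC class II farthest to the left with -1.62.

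The remaining lists had 0 members that passed. Leaving out 1 library moved the medians of the interferon list between -0.17 and 0.11, of the immediate early list between -0.14 and 0.14, of the glycolysis list between -0.10 and 0.047 and of the receptor list between -0.32 and 0.056, so that none of these had a steady direction. Of 29 type I interferon response genes all were tested, 13 positive and 16 negative, with a median of -0.07. Bst2, a tether of budding virus that is also a plasmacytoid dendritic cell gene, had a value of -1.23 ± 0.39 (edgeR adjusted p = 0.157), and Irf9, Trim30a and Ifit3b had -0.68, -0.73 and 2.08. Of 24 immediate early and heat shock genes 22 were tested, 10 positive and 12 negative with a median of -0.06, and Egr1, Jund, Ier5 and Hsph1 had values of 1.56, -1.22, -1.22 and 0.69. The 24 glycolysis and hypoxia genes split 11 positive to 13 negative, with a median of -0.02, and Hk1, Slc16a3, Vegfa and Tpi1 had values of 0.61, 1.05, 1.35 and -0.33. That median was 0.20 with background subtracted and 0.23 with the background share as a term. Of 24 cytokine and growth factor receptors 23 were tested, 9 positive and 14 negative with a median of -0.17, and Igf1r, Csf2rb2, Il3ra and Il1r1 had values of 1.05, 0.91, 0.57 and -0.87. Igf1r was at 64.6 to 382 CPM in HSC and 103 to 142 CPM in LMPP, and HSC replicate 4 was the lowest of all 8. Of 22 adhesion and homing genes 18 were tested, 4 positive and 14 negative with a median of -0.45, which was -0.19 without LMPP replicate 2, -0.28 without HSC replicate 4 and -0.0050 with the background share as a term. Their sum was 972 to 1663 CPM in HSC and 1683 to 2414 CPM in LMPP without overlap. Selplg, the ligand of selectins, was at 89.3 to 158 and 189 to 295 CPM (-0.87 ± 0.38, edgeR adjusted p = 0.197), and Cd44, Cxcr3 and Itga5 had values of -0.77, -1.95 and 0.56.

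The same contrast was measured in the central nervous system (CNS) of the same 8 leukaemia mice. There 2355 of the 15821 genes passed (14.9%), 1091 higher in HSC (6.9%) and 1264 lower (7.99%), and all 9 genes called in BM passed with the same direction. Cd200r3 was at 3.54 ± 0.55, Cd200r4 at 3.83 ± 0.53, Gzmb at 4.42 ± 0.87, Itga2b at 2.38 ± 0.44, Flt3 at -2.88 ± 0.50 and Notch1 at -0.84 ± 0.22 on the log2 scale. Since the mice and the fit are shared, this is not an independent repeat. Background in the CNS libraries was 3.45, 24.4, 12.3 and 15.2% in HSC and 8.58, 3.08, 2.23 and 0.46% in LMPP, so the groups overlapped through HSC replicate 1, and its part in the CNS counts was not tested. Gata1 (3.52 ± 0.68, edgeR adjusted p = 0.00614), Ms4a2 (4.25 ± 0.90, edgeR adjusted p = 0.00859) and Dntt (-2.79 ± 0.75, edgeR adjusted p = 0.0217), which missed the threshold in BM, passed it in the CNS. Siglech was at -2.68 ± 0.58 in BM and -0.18 ± 0.54 in the CNS. In a test of the difference between BM and CNS itself, 0 of 15821 genes passed with edgeR and 0 with DESeq2, with 386 and 443 at an unadjusted p under 0.05. The mouse as a block also gave 0, with 786 at an unadjusted p under 0.05.

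In the control BM the groups were 4 HSC and 4 LMPP libraries from the same 4 mice, with 3.55 to 8.83 M counts in HSC and 7.37 to 11.9 M in LMPP. Background was 21.8 to 27.9% there in HSC and 14.2 to 27.2% in LMPP, so the groups overlapped in it. In control 256 of 11068 genes passed (2.31%), 65 higher in HSC (0.587%) and 191 lower (1.73%). This control fit had no mouse term, so its p-values do not use the pairing of HSC and LMPP by mouse. Flt3 was at -2.70 ± 0.26, Notch1 at -0.93 ± 0.20 and Dntt at -4.27 ± 0.33 in control, each lower in HSC (edgeR adjusted p = 9.50e-06, 0.0203 and 1.15e-06). Tcf19 did not pass in control (-0.39 ± 0.25, edgeR adjusted p = 0.446). Itga2b was at 0.95 ± 0.14 (edgeR adjusted p = 0.000816) against 2.41 ± 0.44 in leukaemia. Gata1 was at 0.36 ± 0.22 and Ms4a2 at 0.04 ± 0.31 in control, neither of which passed. Neither gene passed the test of the difference from control given below, so a difference from leukaemia was not shown for them. Cd200r3, Cd200r4, Gzmb, Parm1 and Auts2 were not above background in enough control libraries to be tested there.

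A test of the difference between leukaemia and control called 1 of 17153 genes (0.00583%), Ighm, at -5.02 ± 0.86 on the log2 scale (edgeR adjusted p = 0.0337). Ighm was at 60.0 to 118 CPM in leukaemia HSC and 146 to 215 CPM in leukaemia LMPP. In control HSC it was measured at 225, 275, 3494 and 364 CPM and in control LMPP at 24.9, 42.8, 50.9 and 146 CPM, so the groups were in the opposite order. Control HSC replicate 3 was far above the others, and without it 0 genes passed. The count was also 0 without control LMPP replicate 1, 2 or 3, without leukaemia HSC replicate 2, 3 or 4, without any 1 of the 4 leukaemia LMPP libraries, and with the control mouse as a block. Without leukaemia HSC replicate 1 the 1 gene called was not Ighm. DESeq2 called 9 genes in this test. For 6 the log2 fold change of HSC over LMPP was higher in leukaemia than in control, and for 3 it was lower. With edgeR 1626 genes were at an unadjusted p under 0.05. For the 9 genes called in leukaemia BM the edgeR adjusted p of this difference was 0.229 to 0.996, so a difference from control was not shown for any of them.

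**Figure D5:**
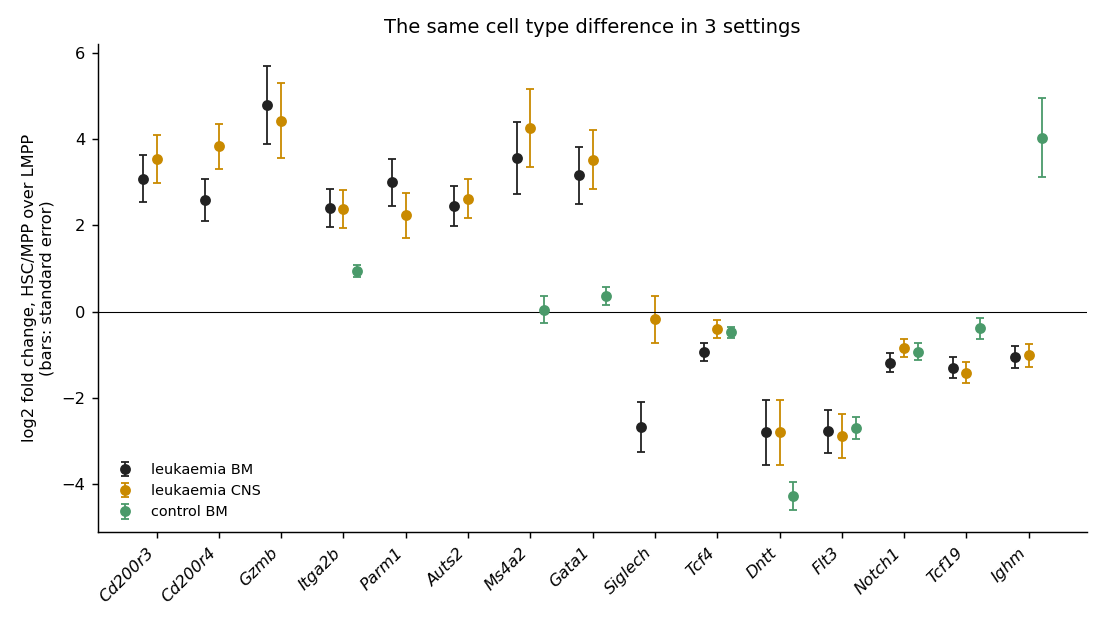
Log2 fold change of HSC/MPP over LMPP (points) with its standard error (bars) for 15 genes in leukaemia BM, leukaemia CNS and control BM. Genes without a control point were not above background in enough control libraries. Flt3 lies between -2.88 and -2.70 in all 3, and Ighm is negative in both leukaemia tissues and at 4.03 in control.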

How the data were processed

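RNA of sorted cells was sequenced as stranded total RNA (SMARTer Pico kit v3), per the labels' protocols. The table deposited by the authors holds whole-number counts per Ensembl gene, although its name calls them normalised: library totals differ, so they were tested as counts. DESeq2 and GRCm39 are named in the submitters' processing notes. No label or header read here names the aligner, the counter or the use of strand, so overlapping and antisense genes are uncertain.

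From these counts, edgeR 4.0.16 (R 4.3.3, TMM scaling, robust quasi-likelihood test) was fitted over all 24 leukaemia libraries with 6 group means, CNS libraries of the same mice included, and Benjamini-Hochberg adjustment at 0.05. Genes entered with more than 3 times the uniform background for their exon length plus 10 counts in at least 4 libraries. Background came from 1795 sensory receptor genes. P-values measure the spread between the libraries of a group, each from another mouse, pooled over the groups of the fit. BM and CNS libraries of 1 mouse were counted as independent in that pooling, so the p-values can be too small. BM and CNS libraries of HSC and LMPP pair by mouse per the labels (8 pairs, median correlation of deviations 0.25, range -0.22 to 0.63), and control HSC and LMPP by mouse (4 pairs, median -0.06). Alternatives used limma 3.58.1, DESeq2 1.42.0, other filters, terms and left-out libraries. Named genes are the gate genes and up to 4 members of each list by smallest p. Added to these are genes called without overlap and at 10 CPM or more in the higher group. They were filled to 8 in each direction by smallest p, under the same conditions of overlap and level. A few genes are not reported here. Other list members named as examples were chosen after their values were seen. Members and lists were chosen with earlier results of these data known. The edgeR script was tested on simulated data.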

Additional observations from a re-analysis of the deposited data

Results flagged for a closer look

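In 258 groups of 4 libraries checked, 33 had 1 library far from the other 3, and chance alone brings about 1 such group in 20. In HSC the far library was low for Auts2 (22.1 CPM, replicate 1), Notch1 (76.8, replicate 2), Tcf4 (66.6, replicate 4), Tapt1 (19.8, replicate 4), Cdkn2c (6.29, replicate 3) and Hist1h2ao (30.1, replicate 3). HSC replicate 4 was high in background, at 26.7% of counts. It was also high for Ctnnal1 (18.2 CPM), Spib (13.6), Il2rb (16.8), Mmp8 (17.2), Mmp9 (27.1), Retnlg (5.18), Cdkn1a (19.7), Vegfa (18.0), Col1a1 (28.9) and Sparc (12.2). HSC replicate 3 was high for Dntt (45.7 CPM) and Il1r1 (47.0), and HSC replicate 1 for H2-Ab1 (170), H2-Aa (108) and H2-Eb1 (72.4).

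LMPP replicate 2 was high for Sult1a1 (83.2 CPM), Ppt1 (280.1), Clec9a (124), H2-Ab1 (1408), H2-Aa (769), H2-Eb1 (599), Mpeg1 (1132), Notch2 (744) and Cxcr3 (23.2). LMPP replicate 1 was high for Ms4a3 (10.6 CPM), and LMPP replicate 3 was low for Ndufa2 (12.96).

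Ighm differed between leukaemia and control in its log2 fold change of HSC over LMPP, by -5.02 ± 0.86 (edgeR adjusted p = 0.0337). The call was lost without control HSC replicate 3, without any 1 of the 4 leukaemia LMPP libraries, and with the control mouse as a block. Leukaemia HSC were all below leukaemia LMPP and control HSC all above control LMPP.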

How the results depend on the processing

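Against the 9 genes called, DESeq2 called 482, limma with sample weights 183 (85 higher and 98 lower in HSC), limma-trend 25 and a fit with no filter 12, of which 2 were among the 9. No background filter gave 2, the 12 BM libraries 1, the 8 libraries 2, the opening number of the mouse identifier as a term 1, and 0 passed with the background share as a term, with background subtracted and without both HSC replicate 4 and LMPP replicate 3. Leaving out 1 library gave 0 to 76. The replicate block over the 8 libraries gave 488 against 2 without it. Here HSC and LMPP share only a number: correlations of same-numbered libraries were -0.16 to 0.39, and the best partner had the same number for 4 of the 8. For the difference from control (1 gene), DESeq2 called 9, limma with sample weights 21, and 0 passed with no background filter, with no filter and in the replicate block, and leaving out 1 library gave 0 to 1. The difference between BM and CNS gave 0 genes in every alternative run.

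Over the named genes, 30 log2 fold changes changed sign. With no background filter and no filter the median of the 15821 genes moved to -0.60 and -0.72. With no background filter Kit was at -0.32, Cd72 -0.14, Ndufb5 -0.25, Il3ra -0.15, Jag2 -0.14 and Itga5 -0.11. With no filter Kit was at -0.47, Cd72 -0.23, Csf3r -0.14, Meis1 -0.083, Cdkn1a -0.034, Ndufb5 -0.38, the log2 fold change of Hk1 -0.0854, Il3ra -0.28, Jag2 -0.23 and Itga5 -0.24. With the background share as a term Il2rb was at -0.82, Mmp8 -0.21, Mmp9 -0.42, Retnlg -2.03, Hoxa5 0.24, Jag2 -0.031 and Derl3 -0.42. Without HSC replicate 3 Kit was at -0.023, without HSC replicate 4 Retnlg at -0.40 and Hoxa5 at 0.01, and without LMPP replicate 3 Hoxa5 at 0.0022. Without both HSC replicate 4 and LMPP replicate 3, Retnlg was at -0.57, Hoxa3 0.064 and Hoxa5 0.29. Leaving out 1 library, the values reached 0.42 for Kit and 1.98 for Retnlg, and went down to -0.70 for Hoxa3 and -0.71 for Hoxa5. The cause was not tested. LMPP replicate 3, with 1.91 M counts, limits low genes most.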
